A study of Mus musculus with 42 samples.

Results

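The comparison described here set trNK-T cells against trNK-D cells of the mouse uterus at gestational day (gd) 8.5. Both are fractions of the tissue-resident natural killer (trNK) cells of the pregnant uterus, and they were separated by flow cytometry on 2 surface proteins, CD55 and 4-1BB. trNK-T cells stained high for both proteins and trNK-D cells stained at an intermediate level for both. Each fraction gave 2 bulk RNA-seq libraries, so 4 of the 42 samples of the series belong to the comparison. Another fraction, trNK-V, which stained low for both proteins (2 libraries), was kept in the statistical fit and is given beside the results. All 6 libraries came from untreated wild-type C57BL/6 female mice, and the day on which a copulation plug was found counted as gd0.5. The cells had first been gated as living CD45+ lymphocytes without lineage markers that carried NK1.1, NKp46 and CD49a and lacked CXCR6. The labels do not say whether the libraries of a fraction came from separate dams or from pooled uteri, so every p-value here measures only the spread between these libraries.

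Uterine trNK cells are the main NK population of the early decidua, where they expand after implantation and act on the maternal spiral arteries. They carry granzymes and perforin, the proteins by which NK cells kill, together with secreted factors that act on vessels and on trophoblast. 4-1BB, encoded by Tnfrsf9, is a costimulatory receptor of the TNF receptor family that appears on activated lymphocytes. CD55 is a membrane protein that shields cells from complement.

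Total counts per library ran from 11862089 to 20786471, and expression is given as RPKM, the counts scaled to transcript length in kilobases and to the library total. The test took in the 4682 of 54446 genes whose RPKM exceeded 10 in each library of at least 1 fraction. Rank correlations (Spearman's rho over the genes tested, a description) were 0.914 between the trNK-D libraries and 0.953 between the trNK-T libraries. trNK-D library 2 and trNK-T library 1 were as close to each other, at 0.915, as the trNK-D libraries were. One library stood apart in another way. Immunoglobulin genes held 3.24% of all counts in trNK-D library 2, against 0.0333% to 0.0659% in the other 5 libraries. The genes of the gate were expressed in all 6 libraries. Ncr1, which encodes NKp46, was at 835 and 748 RPKM in trNK-D and at 637 and 494 RPKM in trNK-T, and Eomes, a transcription factor of NK cells, was at 35.6 and 29.1 RPKM and at 40.3 and 41.1 RPKM.

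The 2 genes used for the sort followed it. Tnfrsf9 was at 200 and 138 RPKM in the trNK-V libraries, at 465 and 507 RPKM in trNK-D, and at 1172 and 1357 RPKM in trNK-T. Cd55 was at 6.44 and 19.4 RPKM, at 52.9 and 72.6 RPKM, and at 179 and 214 RPKM in the same order. The fractions did not overlap for either gene. These levels check the labels and are no result, since the proteins chose the cells.

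Across all genes tested, 16 genes were higher in trNK-T than in trNK-D and 66 were lower. The 16 include Tnfrsf9, whose protein was used for the sort. To be called, a gene needed more than a 2-fold change together with an adjusted p under 0.05 (edgeR quasi-likelihood test, Benjamini-Hochberg over 4682 genes). The 82 called genes made up 1.75% of the genes tested, 0.342% called higher and 1.41% called lower. The median log2 fold change over all genes was -0.02. In such bulk samples, fewer cells of a type and less RNA per cell cannot be told apart. The count rests on few libraries: without trNK-T library 2, 1 gene (Gzme) was called, and without trNK-D library 1, trNK-D library 2 or trNK-T library 1 the counts were 15, 19 and 40. Fewer genes were called without trNK-V library 1 or 2 too. These libraries belong to neither compared fraction, but they enter the filter, the scaling and the estimate of the spread. Each of the 82 genes kept its direction in every other fit that tested it, which was all 15 fits for 68 genes and 13 or 14 for the other 14. These fits draw on the same libraries, so a kept direction is no independent support. The filter bears on the balance of the calls: 31 of the 66 lower genes and 887 of all genes tested passed it without trNK-T, against 4 of the 16 higher genes and 293 of all genes that passed only through trNK-T. Of these 31 genes 23 passed through trNK-D and 8 only through trNK-V. For the 4, which passed in trNK-T alone, a gap between the compared fractions was built into the selection. The same holds for those of the 23 that passed in trNK-D and not in trNK-V.

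**Figure D1:**
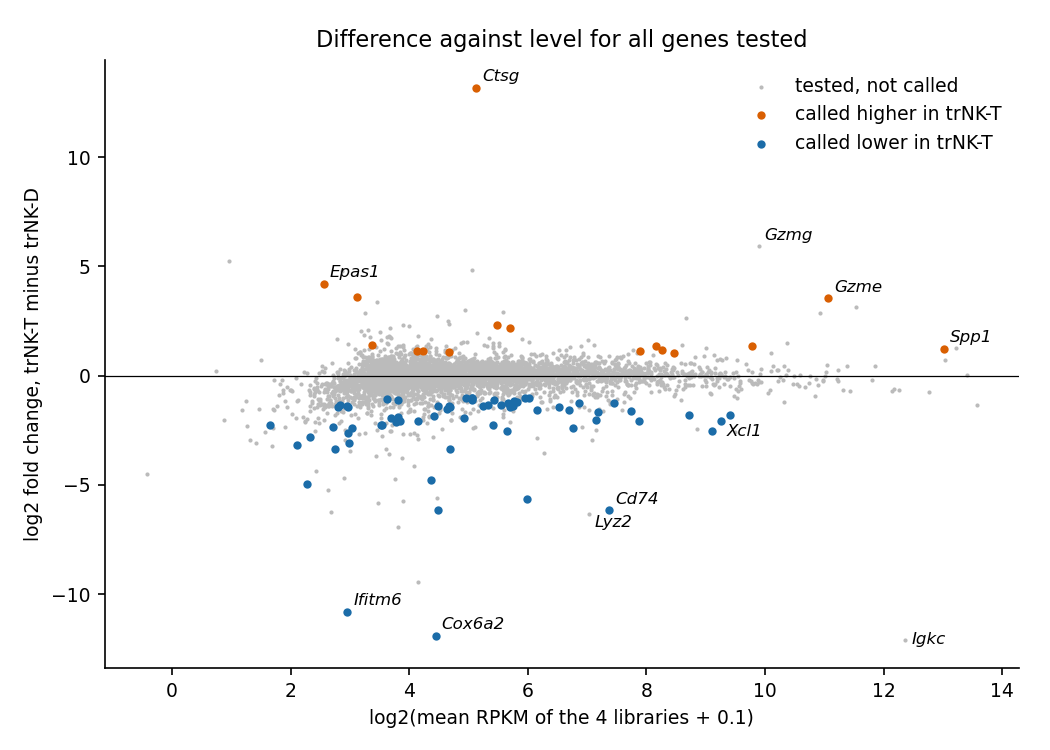
log2 fold change of trNK-T over trNK-D (y axis) against log2 of the mean RPKM of the 4 libraries plus 0.1 (x axis) for the 4682 genes tested, 1 point a gene. The 16 genes called higher (orange) and the 66 called lower (blue) stand off the grey cloud. Igkc, Lyz2 and Gzmg show large differences that did not pass the edgeR test, though DESeq2 called them.

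Granzymes carried the largest rise among abundant transcripts. Gzme, which encodes granzyme E, a serine protease of cytotoxic granules, was at 353 and 325 RPKM in trNK-D and at 3503 and 4379 RPKM in trNK-T. It rose 11.6-fold (log2 fold change 3.53 ± 0.24 SE, adjusted p = 0.00514, edgeR) and was called in all 15 other fits. In trNK-V it was at 46.6 and 65.5 RPKM. Its neighbours Gzmd, Gzmf and Gzmg were also higher in both trNK-T libraries than in both trNK-D libraries, but did not pass the edgeR test. DESeq2 called Gzmg higher. Gzmg was at 38.3 and 22.9 RPKM in trNK-D and at 1580 and 2164 RPKM in trNK-T (log2 fold change 5.93 ± 1.72 SE, adjusted p = 0.117, edgeR). Gzmd was at 733 and 464 RPKM and at 4868 and 5865 RPKM, and Gzmf at 402 and 529 RPKM and at 3517 and 3351 RPKM. These 4 genes are near copies of each other, so the counting may have divided reads among them. Their summed share of all RPKM is less open to that. It was 0.336% and 0.278% in trNK-D and 2.97% and 3.61% in trNK-T, against 0.0125% and 0.0719% in trNK-V.

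Gzmb, Gzmc and Gzma had smaller differences than Gzme. Gzmc, picked for the text after its values were seen, was at 4347 and 6746 RPKM in trNK-D and at 15667 and 11339 RPKM in trNK-T, with a log2 fold change of 1.27 ± 0.26 SE and an adjusted p of 0.0670 (edgeR). Gzmb, the main killing granzyme of NK cells, was at 4712 and 7895 RPKM in trNK-D and at 7896 and 13081 RPKM in trNK-T, with a log2 fold change of 0.72 ± 0.33 SE and an adjusted p of 0.252 (edgeR). Perforin (Prf1), which forms the pores through which granzymes enter a target, was at 665 and 461 RPKM and at 844 and 984 RPKM, without passing the test. Gzma, on another chromosome, was at 1261 and 4995 RPKM in trNK-D and at 2630 and 5958 RPKM in trNK-T, so the fractions overlapped. Of the 24 cytolysis genes listed, 21 were tested, and edgeR called 1 higher and none lower, against 3 and 2 by DESeq2 and 1 and 0 by limma. Their median log2 fold change was 0.35. Of all genes tested, edgeR called 0.342% higher and 1.41% lower.

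Ctsg, which encodes cathepsin G, a protease of the same chymotrypsin-like family, had no count in either trNK-D or either trNK-V library and 1203 and 765 counts in trNK-T, or 77.3 and 62.4 RPKM. It was at least 484-fold higher in trNK-T with 3 counts per library as the floor for trNK-D (adjusted p = 0.00749, edgeR). Ctsg entered the test only through its level in trNK-T, so part of this gap was built into the selection. Ctsg lies at the end of the granzyme cluster of chromosome 14 in the files' gene model (GRCm38, 56099881 to 56262260 on the minus strand for all its tested genes). That interval was picked after the values were seen and is described without a test. It held 7 tested genes in the order Ctsg, Gzme, Gzmd, Gzmg, Gzmf, Gzmc and Gzmb. All 7 had a positive log2 fold change, with a median of 3.16, and in 6 of the 7 the libraries did not overlap. The background share of genes higher without overlap was 28.6%. Next to this interval, Mcpt8, a protease gene known from basophils, was at 2.99 and 11.96 RPKM in trNK-D and at 39.7 and 45.4 RPKM in trNK-T (adjusted p = 0.118, edgeR). The summed level of the 10 mast cell and basophil genes listed, Mcpt8 among them, was 10.05 and 27.6 CPM (counts scaled to the library total, with no length) in trNK-D and 61.05 and 66.7 CPM in trNK-T. Of that list, 3 of 10 genes were higher in both trNK-T libraries than in both trNK-D libraries: Mcpt8, Cpa3 (2.65 and 5.54 CPM against 7.10 and 7.08 CPM) and Kit (4.43 and 5.49 CPM against 7.76 and 11.2 CPM). Mcpt4, Tpsb2, Tpsab1, Ms4a2 and Fcer1a had no count in any of the 4 libraries. The part of such cells in the rise of Ctsg was not tested.

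The starts of these genes are shown because the neighbours moved together. The 250 bases before the gene start (RefSeq, GRCm38.p6, minus strand of chromosome 14) are given 5′ to 3′, with matches to the RUNX motif TGTGGT, or its complement ACCACA, in capitals. Gzme is at chr14:56120626-56120875, Gzmd at chr14:56132594-56132843 and Gzmg at chr14:56159580-56159829.
Gzme: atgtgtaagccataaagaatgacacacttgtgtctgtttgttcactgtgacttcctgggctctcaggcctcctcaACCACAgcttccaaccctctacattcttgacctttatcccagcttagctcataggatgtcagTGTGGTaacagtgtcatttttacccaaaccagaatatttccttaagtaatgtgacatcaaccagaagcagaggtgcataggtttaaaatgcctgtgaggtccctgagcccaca
Gzmd: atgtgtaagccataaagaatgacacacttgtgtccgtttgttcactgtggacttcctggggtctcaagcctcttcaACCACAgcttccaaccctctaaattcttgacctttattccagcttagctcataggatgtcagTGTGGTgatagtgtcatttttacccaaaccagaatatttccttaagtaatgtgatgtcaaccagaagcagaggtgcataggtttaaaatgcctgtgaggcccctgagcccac
Gzmg: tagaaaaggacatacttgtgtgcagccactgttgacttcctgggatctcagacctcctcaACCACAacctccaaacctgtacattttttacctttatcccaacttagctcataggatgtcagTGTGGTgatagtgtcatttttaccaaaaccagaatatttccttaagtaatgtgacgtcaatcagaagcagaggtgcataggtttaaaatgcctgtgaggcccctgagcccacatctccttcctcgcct
Each of these windows, and that of Gzmf, held 2 such matches at the same distance from each other, for example 175 and 113 bases before the start in Gzme. The windows of Gzme and Gzmd were identical at 95.6% of the aligned bases, and the other pairs among the 4 genes at 89.5% to 91.0%. The RUNX motif, searched on both strands in windows of 300 bases, occurred in 18.9% of all 27025 genes with a promoter entry. Among the 15 largest rises of called genes it occurred in 6 of the 12 genes that had an entry, and among the 15 largest falls of called genes in 4 of 9. Other-cell genes and predicted genes were left out of both. The STAT motif TTCNNNGAA occurred in 2 of 12 and 2 of 9, against 9.55% of all genes, and the AP-1 motif TGANTCA in 2 of 12 and 1 of 9, against 8.97%. The E-box CACGTG occurred in 1 of 12 and 1 of 9, against 8.09%. Over all 60 called genes with an entry, the RUNX, STAT, AP-1 and E-box motifs occurred in 20, 11, 6 and 5 genes. Tnfrsf9, whose protein was used for the sort, is among the rises counted for the RUNX, the STAT and the AP-1 motif. Such matches are a description and no evidence of binding.

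**Figure D2:**
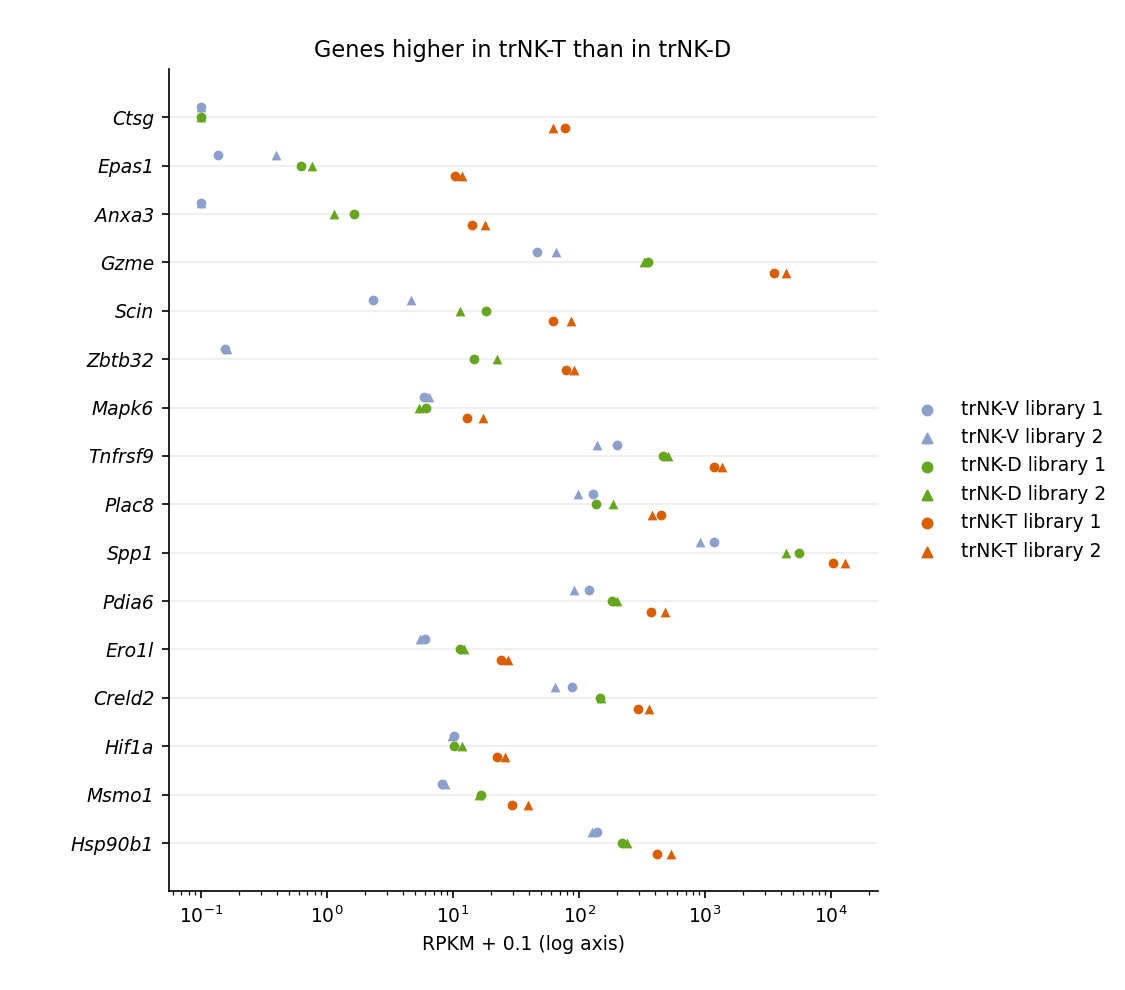
RPKM plus 0.1 (log axis) of the 16 genes called higher in trNK-T, 1 row a gene, with 2 libraries for each fraction (circle, library 1, and triangle, library 2). In every row both trNK-T libraries lie to the right of both trNK-D libraries, and Ctsg sits at 0 RPKM in trNK-V and trNK-D.

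Spp1, Zbtb32, Scin and Plac8 were among the other genes called higher. Spp1, which encodes osteopontin, a secreted matrix and cytokine-like protein, was at 1185 and 903 RPKM in trNK-V, at 5539 and 4413 RPKM in trNK-D and at 10388 and 12936 RPKM in trNK-T. The rise from trNK-D to trNK-T was 2.33-fold (log2 fold change 1.22 ± 0.20 SE, adjusted p = 0.0455, edgeR). In trNK-T library 2, Spp1 alone held 2.96% of all RPKM. Zbtb32, a transcriptional repressor of lymphocytes, was at 0.0550 and 0.0604 RPKM in trNK-V, at 14.6 and 22.3 RPKM in trNK-D and at 78.4 and 91.5 RPKM in trNK-T. Scin, which encodes the actin-severing protein scinderin, was at 18.0 and 11.3 RPKM in trNK-D and at 62.2 and 85.8 RPKM in trNK-T, a 5.03-fold rise. Plac8, a small cysteine-rich protein, rose 2.57-fold.

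Epas1 and Hif1a, which encode the hypoxia-inducible factors HIF-2α and HIF-1α, were both called higher. Epas1 was at 0.526 and 0.660 RPKM in trNK-D and at 10.3 and 11.6 RPKM in trNK-T. Hif1a was at 10.1 and 11.8 RPKM and at 22.2 and 25.6 RPKM. Anxa3, an annexin, was at 1.53 and 1.05 RPKM in trNK-D and at 14.1 and 17.7 RPKM in trNK-T, and it was the 1 gene of 16 annexin, S100 and galectin genes tested that edgeR and limma called, while DESeq2 also called Lgals8 lower. Ctsg, Epas1, Anxa3 and Mapk6 were the 4 higher genes that entered the test only through their level in trNK-T. The summed level of 9 endothelial markers was 165 and 213 CPM in trNK-D and 316.5 and 314 CPM in trNK-T, most of it Pecam1. Kdr and Tek had 117 and 66 counts in trNK-T library 1 and none in trNK-T library 2 or trNK-D, and Egfl7 had 27 and 18 counts in trNK-D and 216 and 36 counts in trNK-T. The part of such cells in these rises was not tested. None of the 14 glycolysis and hypoxia genes tested was called either way by edgeR, at an adjusted p or at an unadjusted p below 0.05 with a change above 2-fold, nor by DESeq2 or limma. Over all genes tested, 9.18% passed the unadjusted rule, and 6.94% passed it as lower. The median log2 fold change of the 14 genes was 0.43, and Ldha, lactate dehydrogenase A, was at 372 and 521 RPKM in trNK-D and at 698 and 822 RPKM in trNK-T.

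Chaperones of the endoplasmic reticulum (ER) formed the largest group among the rises. These proteins fold and check secreted and membrane proteins, and their genes respond together to ER stress. Hsp90b1, the ER member of the HSP90 family (also called GRP94), was at 218 and 240.5 RPKM in trNK-D and at 414 and 534 RPKM in trNK-T. Pdia6, a protein disulfide isomerase, was at 181 and 199 RPKM and at 375 and 477 RPKM. Creld2 was at 147 and 149.5 RPKM and at 295 and 355 RPKM, and Ero1l, an oxidase that supports disulfide formation, at 11.2 and 12.1 RPKM and at 24.0 and 27.3 RPKM. The 4 genes rose between 2.05-fold and 2.23-fold, with adjusted p-values of 0.0455 to 0.0474 (edgeR). In each of them the trNK-T libraries were above the trNK-D libraries, which in turn were above the trNK-V libraries.

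Hspa5, Xbp1 and Dnajb9 of the same list were picked for the text after their values were seen. Of the 24 ER stress genes tested, edgeR and limma each called 4 higher and none lower, and DESeq2 called 6 higher and 1, Ppp1r15a, lower. In all, 21 had a positive log2 fold change, with a median of 0.73. For all genes tested, edgeR called 0.342% higher, and 2271 of 4682 had a positive log2 fold change. Hspa5 (BiP), the central ER chaperone, was at 352 and 425 RPKM in trNK-D and at 655 and 839 RPKM in trNK-T (log2 fold change 0.93 ± 0.20 SE, adjusted p = 0.0738, edgeR). Xbp1 and Dnajb9 had log2 fold changes near 0, and Ppp1r15a, which restores translation after stress, was at 45.1 and 54.4 RPKM in trNK-D and at 27.2 and 18.5 RPKM in trNK-T. No ER stress gene was called when any 1 of the 4 libraries was left out. Sterol synthesis genes had the same sign throughout: all 13 sterol and fatty acid genes tested had a positive log2 fold change, with a median of 1.00. Among these 13, Msmo1, a sterol methyl oxidase, was called higher by edgeR (16.5 and 15.8 RPKM in trNK-D, 29.3 and 39.3 RPKM in trNK-T). Hmgcs1, which makes HMG-CoA, was at 14.5 and 16.1 RPKM and at 37.4 and 51.1 RPKM (adjusted p = 0.0510, edgeR). The 1 call by limma was Hmgcs1, not Msmo1, and DESeq2 called 4 higher, both genes among them.

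The promoters of 3 of the ER genes are shown because they hold the same rare element. The ER stress element, a CCAAT box and the letters CCACG with 9 free bases between them, was read on either strand and added to the motif search after the genes had been seen. It occurred in 37 of 27025 genes with a promoter entry (0.137%), and in 7 of the 21 tested ER stress genes that had one, namely Hsp90b1, Pdia6, Creld2, Hspa5, Calr, Canx and Dnajc3. Of these 7, edgeR called Hsp90b1, Pdia6 and Creld2 higher and did not call Hspa5, Calr, Canx or Dnajc3. The count thus describes the list and not the rise. Among the largest rises of called genes 2 of 12 held the element, and among the largest falls 0 of 9. The CCAAT box alone occurred in 18 of the 21 ER stress genes and in 41.1% of all genes. The 250 bases before the gene start (RefSeq, GRCm38.p6) follow with the element in capitals, for Pdia6 at chr12:17266339-17266588 (plus strand), Creld2 at chr15:88819396-88819645 (plus strand) and Hsp90b1 at chr10:86705445-86705694 (minus strand).
Pdia6: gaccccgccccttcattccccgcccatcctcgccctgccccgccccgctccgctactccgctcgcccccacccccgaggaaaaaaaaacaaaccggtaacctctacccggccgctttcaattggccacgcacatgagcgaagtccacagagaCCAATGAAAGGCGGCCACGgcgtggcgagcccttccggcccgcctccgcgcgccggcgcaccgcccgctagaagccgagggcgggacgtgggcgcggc
Creld2: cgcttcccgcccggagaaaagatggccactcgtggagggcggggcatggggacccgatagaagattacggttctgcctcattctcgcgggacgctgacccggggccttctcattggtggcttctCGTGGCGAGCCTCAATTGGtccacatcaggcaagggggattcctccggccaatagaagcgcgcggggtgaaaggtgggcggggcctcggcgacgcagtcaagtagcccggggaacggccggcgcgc
Hsp90b1: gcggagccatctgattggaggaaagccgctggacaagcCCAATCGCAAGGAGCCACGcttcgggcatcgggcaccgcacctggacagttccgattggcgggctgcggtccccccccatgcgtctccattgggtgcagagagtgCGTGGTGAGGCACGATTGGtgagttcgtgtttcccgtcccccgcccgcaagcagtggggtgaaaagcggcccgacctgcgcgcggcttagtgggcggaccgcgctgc
Hsp90b1 held the element 2 times, and Pdia6 and Creld2 held it 1 time each.

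Several receptors of NK cells fell. Klrc1, which encodes the inhibitory receptor NKG2A, was at 185 and 210 RPKM in trNK-V, at 70.5 and 69.8 RPKM in trNK-D and at 16.1 and 12.9 RPKM in trNK-T. It fell by 2.28 ± 0.18 (SE) on the log2 scale (adjusted p = 0.00514, edgeR). Klrc2, its activating relative NKG2C, was at 42.4 and 47.3 RPKM, at 11.5 and 15.7 RPKM and at 2.32 and 2.81 RPKM in the same order, and fell by 2.42 on the log2 scale (adjusted p = 0.00763, edgeR). The Ly49 receptors encoded by Klra3, Klra4 and Klra9 and the receptor gene Klri2 were also called lower, each by 1.25 or more on the log2 scale. Klra4, an activating Ly49 receptor, was at 316 and 439 RPKM in trNK-D and at 68.6 and 109 RPKM in trNK-T.

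Of 38 NK receptor genes tested, edgeR and limma each called 6 lower and none higher, and DESeq2 called 17 lower and 2 higher, Havcr2 among the 2. In all, 32 had a negative log2 fold change, with a median of -0.85. For all genes tested, edgeR called 1.41% lower, and 2411 of 4682 had a negative log2 fold change. Without trNK-T library 2 none of the 6 was called. Klrb1c, which encodes NK1.1, was at 283 and 186 RPKM in trNK-D and at 106 and 95.5 RPKM in trNK-T (adjusted p = 0.0600, edgeR). Other members went the other way without passing the edgeR test. Havcr2, which encodes TIM-3, was at 0.707 and 3.79 RPKM in trNK-D and at 43.8 and 84.8 RPKM in trNK-T (log2 fold change 4.82 ± 1.25 SE, adjusted p = 0.0942, edgeR), and Klrg1 was at 449 and 483 RPKM and at 813 and 739 RPKM. Near copies among the Klra genes, and the pseudogenes Klra13-ps and Klra14-ps that were called lower beside them, may share reads.

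Position grouped these falls too, over intervals picked after the values were seen. In the NK gene complex of chromosome 6, from Klrb1a to Klra1 (GRCm38, 128609227 to 130386874), 28 genes were tested. Of these, 8 were called lower, the pseudogenes Klra13-ps and Klra14-ps among them, 26 had a negative log2 fold change and 24 were lower without overlap. Over all genes tested, 1.41% were called lower and 2411 of 4682 had a negative log2 fold change. In the Gimap cluster of the same chromosome (48647234 to 48770851), which encodes GTPases of lymphocyte survival, all 9 tested genes had a negative log2 fold change and libraries that did not overlap. The background share of genes lower without overlap was 30%. Gimap3, Gimap4, Gimap5 and Gimap7 were called. Gimap4 was at 764 and 538 RPKM in trNK-D and at 230 and 144 RPKM in trNK-T.

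**Figure D3:**
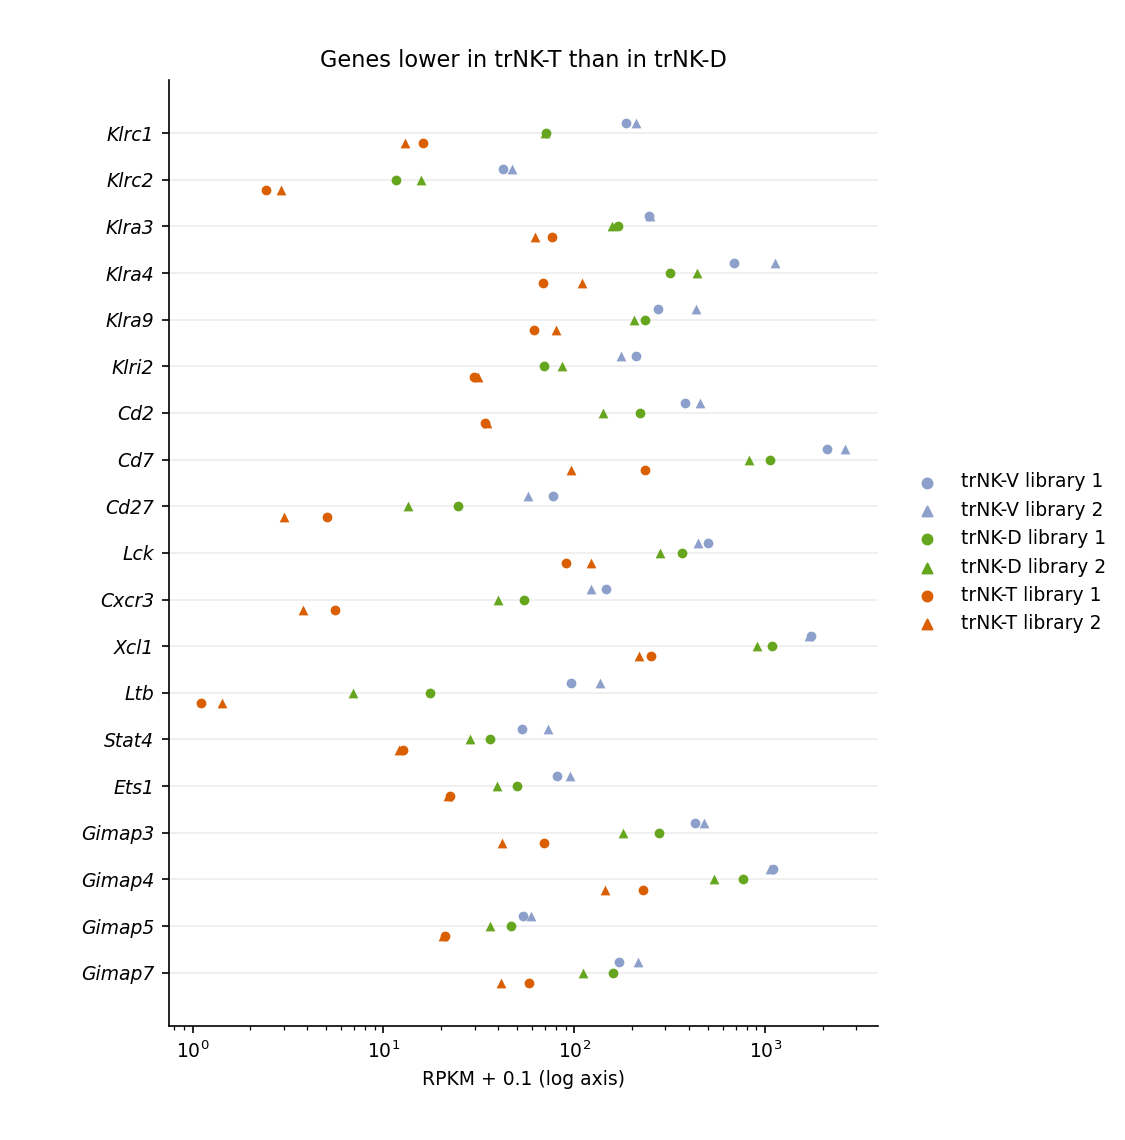
RPKM plus 0.1 (log axis) of 19 genes called lower in trNK-T, chosen for their roles in the text, 1 row a gene, with 2 libraries for each fraction (circle, library 1, and triangle, library 2). In every row both trNK-T libraries lie to the left of both trNK-D libraries, and for Klrc1 and Cxcr3 trNK-D lies between trNK-V and trNK-T.

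Some chemokine and homing genes fell. Xcl1, a chemokine that attracts cross-presenting dendritic cells, was at 1732 and 1699 RPKM in trNK-V, at 1080 and 903 RPKM in trNK-D and at 253 and 218 RPKM in trNK-T. It fell by 2.08 ± 0.17 (SE) on the log2 scale (adjusted p = 0.00514, edgeR). The predicted gene Gm20743 lies on the opposite strand over Xcl1 and was called lower with it, and reads of this pair cannot be told apart because the libraries carry no strand. Cxcr3, a receptor for interferon-induced chemokines, was at 147 and 122 RPKM in trNK-V, at 54.2 and 39.7 RPKM in trNK-D and at 5.44 and 3.70 RPKM in trNK-T, a 10.2-fold fall from trNK-D. Of 17 adhesion and homing genes tested, 2 were called lower, Cxcr3 among them, and none higher by edgeR, limma or DESeq2, which called 3 lower. Of 10 secreted factors tested, Xcl1 was called lower and Spp1 higher. The shares called by edgeR among all genes tested were 1.41% lower and 0.342% higher. Ifng was at 41.3 and 34.96 RPKM in trNK-D and at 20.2 and 21.9 RPKM in trNK-T (adjusted p = 0.208, edgeR). Ccl4 and Ccl5 varied several-fold between the trNK-D libraries and were lower in trNK-T without overlap. Ccl4 was at 1234 and 323 RPKM and at 188 and 99.1 RPKM (adjusted p = 0.115, edgeR). Ccl5 was at 1976 and 490 RPKM and at 404 and 9.66 RPKM (adjusted p = 0.318, edgeR). Of the 10 factors, 7 were lower without overlap and 1 higher, where 30% of all genes tested were lower without overlap.

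Of 9 TNF family genes tested, edgeR called 2 lower, Ltb and Cd27, and 1 higher. DESeq2 called 5 lower and 1 higher, and limma called none lower and 1 higher. Over all genes tested, edgeR called 1.41% lower. Ltb, which encodes lymphotoxin beta, was at 95.6 and 136 RPKM in trNK-V, at 17.4 and 6.84 RPKM in trNK-D and at 1.01 and 1.33 RPKM in trNK-T, a 10.4-fold fall from trNK-D. Cd27, a costimulatory receptor of less mature NK cells, was at 24.6 and 13.3 RPKM in trNK-D and at 4.96 and 2.90 RPKM in trNK-T. Tnfrsf9 was called higher, which the sort on 4-1BB fixed.

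Further called genes, which belong to no list and were gathered after their values were seen, encode signalling proteins of lymphocytes. Lck, a kinase at antigen receptors, was at 367 and 280 RPKM in trNK-D and at 90.0 and 122 RPKM in trNK-T. Cd2, an adhesion receptor, was at 221 and 141 RPKM and at 33.998 and 34.8 RPKM, and Cd7 at 1060 and 823 RPKM and at 234 and 96.0 RPKM. The adaptors Sla, Skap1 and Tespa1, the lipid phosphatase Inpp5d (SHIP1) and the potassium channel Kcna3 were also called lower. These genes serve T cells too. The summed level of 15 T cell markers was 1341 and 1217 CPM in trNK-D and 925.5 and 884 CPM in trNK-T. Of these markers 7 were tested and none was called by edgeR (4 at an unadjusted p below 0.05 and a fall above 2-fold) or limma, and 4 by DESeq2. Among all genes tested, 6.94% passed that unadjusted rule as lower. Of the 7 tested markers 5 were lower without overlap, where 30% of all genes tested were lower without overlap. Of all 15 markers, tested or not, 6 were lower in both trNK-T libraries than in both trNK-D libraries and none higher. Cd3g had 2084 and 2767 counts in trNK-D and 884 and 531 counts in trNK-T. Cd4, Cd6, Cd8a and Cd8b1 had at most 6 counts in a trNK-D library and none in trNK-T, and Cd3e had 53 and 0 counts in trNK-D and none in trNK-T. The part of such cells in the falls was not tested.

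Among transcription regulators, Stat4, which carries signals of IL-12, was at 36.2 and 28.5 RPKM in trNK-D and at 12.6 and 11.9 RPKM in trNK-T. Ets1, a factor of NK cell development, was at 50.2 and 39.1 RPKM and at 22.3 and 21.6 RPKM. Both were called lower by edgeR, as Epas1 and Hif1a were called higher, out of 22 tested regulators with a median of -0.07. DESeq2 called 5 regulators lower, Stat4 and Ets1 among them, and limma called none lower. Epas1 and Hif1a were called higher by DESeq2 and limma too. Tcf7 (TCF-1) was at 14.6 and 11.8 RPKM in trNK-D and at 3.01 and 0.321 RPKM in trNK-T (adjusted p = 0.105, edgeR), and Tbx21 (T-bet) at 45.5 and 32.8 RPKM and at 21.9 and 17.2 RPKM (adjusted p = 0.0764, edgeR). Runx3, Id2 and Nfil3 had log2 fold changes between -0.19 and 0.38. None of the 13 cytokine receptor genes tested was called at an adjusted p (8 fell at an unadjusted p below 0.05 and above 2-fold, edgeR, against 8 by DESeq2 and 0 by limma), and their median log2 fold change was -1.39. Among all genes tested, 6.94% fell by that unadjusted rule, and edgeR called 0.342% higher and 1.41% lower. Il21r was at 50.8 and 32.8 RPKM in trNK-D and at 13.9 and 6.72 RPKM in trNK-T (log2 fold change -2.02 ± 0.37 SE, adjusted p = 0.0522, edgeR).

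Of 29 interferon-stimulated genes tested, edgeR called 2 lower and none higher, against 10 and 0 by DESeq2 and 0 of either by limma, and 25 had a negative log2 fold change. Their summed share of all RPKM went the other way, with 0.739% and 0.747% in trNK-D and 0.966% and 1.14% in trNK-T. Ifitm1 and Ifitm2, which did not pass the test, were high in trNK-T: Ifitm2 was at 310.02 and 1084 RPKM in trNK-D and at 1654 and 2275 RPKM in trNK-T. Irf7, a regulator of interferon production, was at 43.8 and 22.4 RPKM in trNK-D and at 9.96 and 8.75 RPKM in trNK-T, and Oas1a, an antiviral enzyme, at 41.5 and 31.9 RPKM and at 14.4 and 10.96 RPKM. Outside that list, Ifitm6, of the interferon-induced transmembrane family, had no count in trNK-T and 13.9 and 16.7 RPKM in trNK-D, at least 61.7-fold lower in trNK-T with a floor of 3 counts per library. Cox6a2, a subunit of the respiratory chain, likewise had no count in trNK-T, against 29.997 and 56.6 RPKM in trNK-D, at least 131-fold lower. It was the only called gene of 56 respiratory chain genes tested, whose median log2 fold change was 0.10. Its gene model overlaps Itgad on the other strand. Ifitm6 and Cox6a2 are among the 23 lower genes that passed the filter in trNK-D and not in trNK-T. Ifitm6, at 3.94 and 7.40 RPKM in trNK-V, entered through trNK-D alone, so part of its gap was built into that selection. Cox6a2, at 37.2 and 106 RPKM in trNK-V, passed the filter there too. None of the 20 immediate early genes tested was called by edgeR or limma, with a median of -1.09. At an unadjusted p below 0.05 and above 2-fold 8 fell (edgeR), and DESeq2 called 5 lower. For all genes tested, 6.94% fell by that unadjusted rule and edgeR called 1.41% lower. In all, 2411 of 4682 had a negative log2 fold change.

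No cell division gene of the 2 lists passed the test. None of the 32 DNA replication and 22 mitosis genes tested was called, at an adjusted p or at an unadjusted p below 0.05 with a change above 2-fold (edgeR, and likewise none by DESeq2 or limma). Of these, 23 and 20 had a positive log2 fold change. Ccnb1, cyclin B1, was at 3.74 and 50.3 RPKM in trNK-D and at 27.3 and 57.3 RPKM in trNK-T. Ccnd3, a D-type cyclin of lymphocytes, was called lower, at 40.7 and 33.0 RPKM and at 14.2 and 13.9 RPKM. Of 18 apoptosis genes tested none was called by edgeR or limma. The 1 gene that fell at an unadjusted p below 0.05 and above 2-fold (edgeR), Bcl2, was called by DESeq2. Of all genes tested, 6.94% fell by that unadjusted rule. Bcl2 was at 56.1 and 38.4 RPKM in trNK-D and at 24.7 and 18.2 RPKM in trNK-T.

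**Figure D4:**
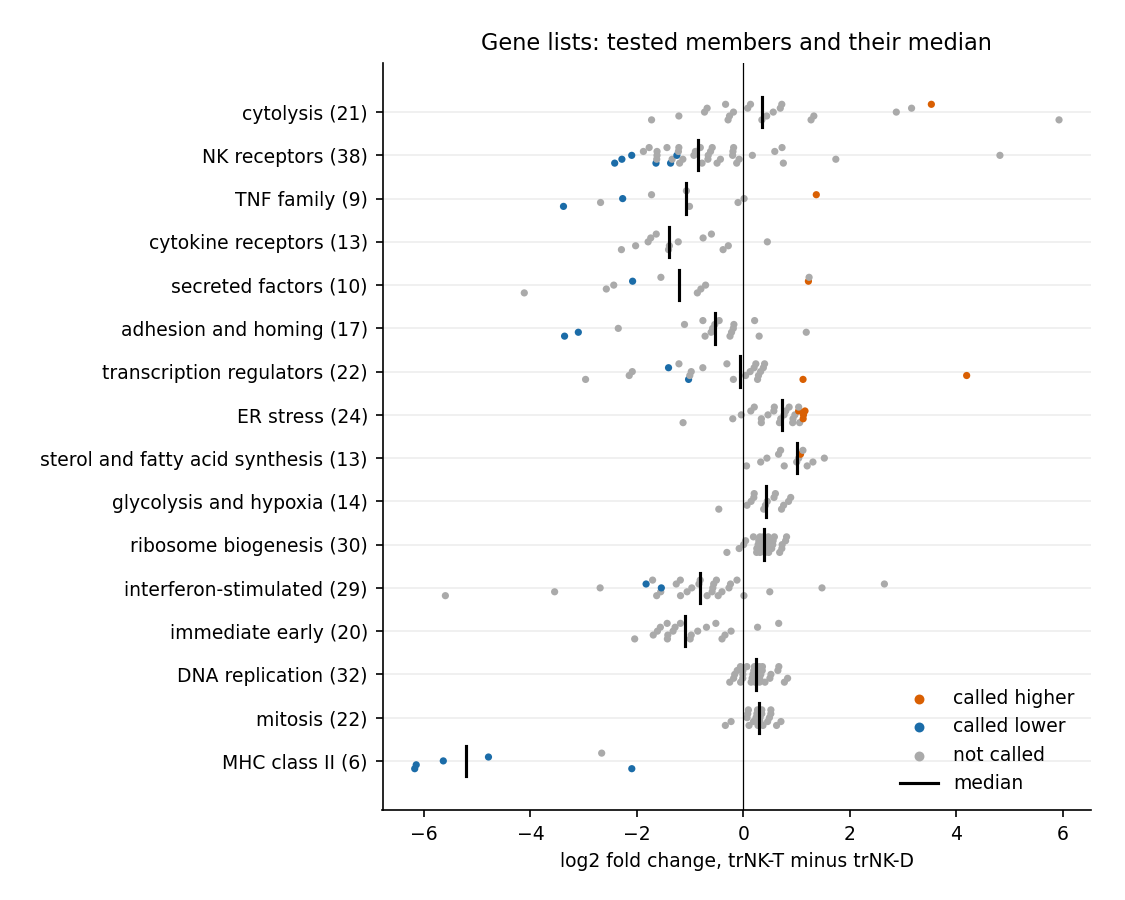
log2 fold change of trNK-T over trNK-D (x axis) for the tested members of 16 gene lists (y axis, with the number tested), 1 point a gene, and a black bar at the median. Called genes are orange (higher) or blue (lower), and the medians run from -5.21 for MHC class II to 1.00 for sterol and fatty acid synthesis.

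Transcripts of other cells are reported apart. Plasma cell genes stood out in 1 library. Igkc, the kappa light chain constant region, had 336 and 220756 counts in the trNK-D libraries and 20 and 15 counts in trNK-T. Igha, the heavy chain of IgA, had 370 and 237880 counts and 175 and 98 counts, and Jchain, which joins IgA into dimers, had 181 and 84112 counts and 16 and 6 counts. Mzb1, Tnfrsf17 and Pou2af1 had 320, 102 and 62 counts in trNK-D library 2 and none in the other 5 libraries. The summed level of the 18 plasma cell genes was 28180 CPM there and 357 to 580 CPM elsewhere. Most of that remaining level was Ighm, at 219 and 238 RPKM in trNK-D and at 189 and 169 RPKM in trNK-T. Igkc and Ighm were the only plasma cell genes that entered the test. Neither was called by edgeR (Igkc adjusted p = 0.0864) or limma, while DESeq2 called Igkc lower. Of the 18 genes, 6 were lower in both trNK-T libraries than in both trNK-D libraries, against 30% of all genes tested. Fkbp11 was the 1 gene higher in both, with 76 and 205 counts in trNK-D and 210 and 235 counts in trNK-T. Derl3 had 49 and 176 counts in trNK-D and 83 and 80 counts in trNK-T. The summed level of 12 B cell markers was 64.6 and 46.9 CPM in trNK-D and 19.97 and 1.60 CPM in trNK-T. Among them Cd79a had 0 and 421 counts and 2 and 0 counts, and Ighd had 1307 and 370 counts and 239 and 13 counts, while 6 of the 12, Ms4a1 and Pax5 among them, had no count in any of the 4 libraries.

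Macrophage transcripts were present in both trNK-D libraries and low in trNK-T. Lyz2, which encodes lysozyme, had 5799 and 7849 counts in trNK-D and 39 and 72 counts in trNK-T, or 212 and 303 RPKM against 1.97 and 4.61 RPKM. Apoe had 694 and 1621 counts and 60 and 53 counts, and Cd68 had 820 and 886 counts and 269 and 145 counts. Csf1r, the receptor for CSF-1, had 152 and 290 counts in trNK-D and none in trNK-T, and Adgre1, which encodes F4/80, had 82 and 52 counts and 1 and 0 counts. C1qa, C1qb and C1qc had 33 to 170 counts in the trNK-D libraries and 0 to 22 in trNK-T. Of the 20 macrophage genes, 13 were lower in both trNK-T libraries than in both trNK-D libraries, against 30% of all genes tested. Cd14 was the only one of the 20 higher in both. The summed level of the 20 genes was 494.5 and 634 CPM in trNK-D, 92.97 and 61.7 CPM in trNK-T, and 151 and 692 CPM in trNK-V. Only Lyz2, Apoe, Cd68 and Selenop entered the test, and none was called by edgeR or limma. At an unadjusted p below 0.05 and above 2-fold 3 fell (edgeR), against 6.94% of all genes tested. DESeq2 called 3 lower.

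**Figure D5:**
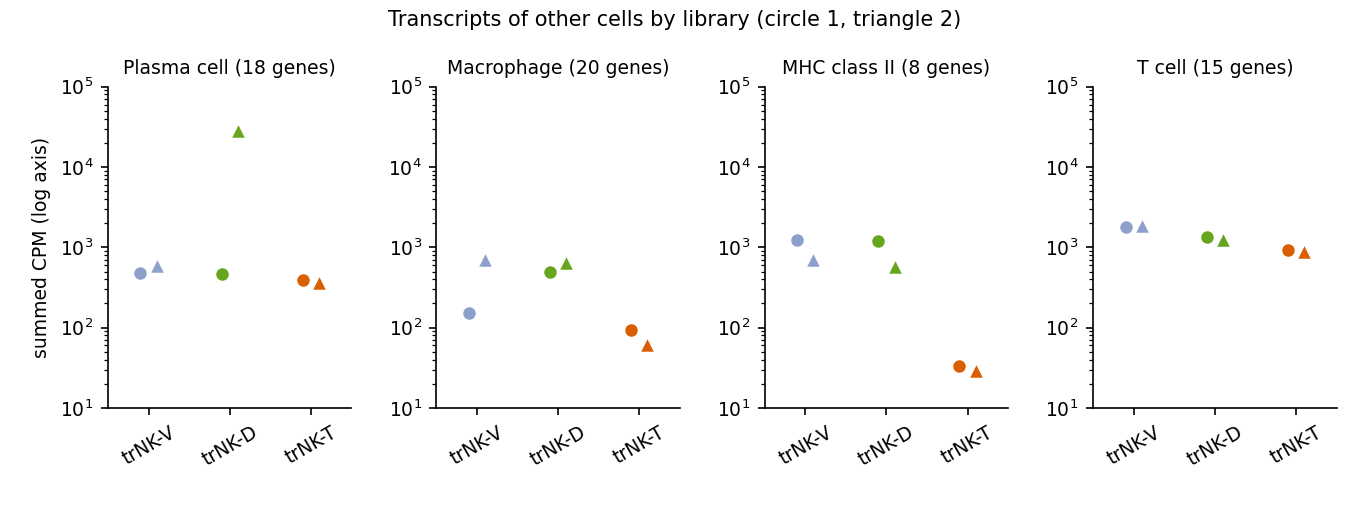
Summed CPM (log axis) of marker genes of other cells in each library, with 2 libraries for each fraction (circle, library 1, and triangle, library 2). Plasma cell genes reach 28180 CPM in trNK-D library 2, and MHC class II genes lie between 566 and 1241 CPM in trNK-V and trNK-D and at 33.4 and 28.8 CPM in trNK-T.

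The 3 deepest falls among called genes with counts in both fractions, those of H2-Aa, Cd74 and H2-Ab1, were in MHC class II, by which antigen-presenting cells show peptides to CD4+ T cells. Cd74, the invariant chain, was at 362 and 227 RPKM in trNK-V, at 439 and 216 RPKM in trNK-D and at 5.18 and 4.07 RPKM in trNK-T, a 70.7-fold fall from trNK-D (adjusted p = 0.00514, edgeR). H2-Ab1 was at 166 and 82.8 RPKM and at 2.96 and 2.01 RPKM, H2-Aa at 68.5 and 19.0 RPKM and at 0.460 and 0.765 RPKM, and H2-Eb1 at 51.8 and 27.7 RPKM and at 2.24 and 0.570 RPKM. Of 6 tested members 5 were called lower, H2-DMa with them, against 1.41% of all genes tested. The median log2 fold change was -5.21. The 5 called genes were below an RPKM of 10 in both trNK-T libraries. They are among the 23 that passed the filter in trNK-D and not in trNK-T. All 5 passed it in trNK-V too, H2-Aa for example at 98.9 and 24.5 RPKM, so their entry did not rest on trNK-D alone. With 1 of the 4 libraries left out, 0 to 3 of these calls were left. Ciita, the regulator of these genes, had 117 and 13 counts in trNK-D and none in trNK-T. Ctss, a protease that trims the invariant chain, was at 73.3 and 96.8 RPKM in trNK-D and at 14.2 and 15.3 RPKM in trNK-T and was called lower. The summed levels of macrophage and of dendritic cell genes were also lower in trNK-T. The MHC class II sum was 1206 and 566 CPM in trNK-D and 1241 and 699 CPM in trNK-V. In trNK-D the macrophage sum was 494.5 and 634 CPM and the sum of 9 dendritic cell genes 612 and 203 CPM. The dendritic cell sum was 119 and 26.9 CPM in trNK-T and 520.2 and 533 CPM in trNK-V. Most of it was Itgax, with 7609 and 3702 counts in trNK-D and 1353 and 224 counts in trNK-T, a gene that NK cells also express, and Cd209a, with 4847 and 0 counts in trNK-D and none in trNK-T. Of the 9 genes, 1, Itgax, was lower in both trNK-T libraries than in both trNK-D libraries. Another 1, Ccr7, was higher in both, with 0 and 15 counts in trNK-D and 124 and 34 counts in trNK-T. Clec9a and Siglech had no count in any of the 4 libraries. The part of such cells in the falls was not tested. In the 6 libraries of cultured trNK cells described last, Cd74 was at 0 to 1.1045 RPKM and H2-Ab1 at 0.0207 to 5.35 RPKM, but H2-DMa was at 14.8 to 45.3 RPKM.

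The starts of 2 of these genes are shown with the Y box of MHC class II promoters, CTGATTGG, in capitals. The 250 bases before the gene start (RefSeq, GRCm38.p6) lie at chr17:34287824-34288073 (minus strand) for H2-Aa and at chr17:34305617-34305866 (plus strand) for H2-Eb1.
H2-Aa: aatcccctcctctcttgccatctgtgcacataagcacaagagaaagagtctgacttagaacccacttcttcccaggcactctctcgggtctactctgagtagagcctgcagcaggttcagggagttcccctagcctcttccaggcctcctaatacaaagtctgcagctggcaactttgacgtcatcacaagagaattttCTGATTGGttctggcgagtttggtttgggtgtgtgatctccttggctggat
H2-Eb1: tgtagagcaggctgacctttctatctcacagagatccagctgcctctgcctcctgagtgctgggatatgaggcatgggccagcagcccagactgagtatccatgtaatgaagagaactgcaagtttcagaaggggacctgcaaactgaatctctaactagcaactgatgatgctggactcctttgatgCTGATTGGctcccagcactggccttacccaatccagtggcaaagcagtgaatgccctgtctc
The motif contains the complement of a CCAAT box, was added after the genes had been seen, and occurred in 4.70% of all genes with an entry on either strand. It occurred 51 bases before the start in H2-Aa and 62 bases before it in H2-Eb1, and 2 of the 4 tested MHC class II genes with an entry held it. It was not particular to the genes that fell: 11 of the 21 tested ER stress genes with an entry held it, as did 4 of 12 among the largest rises of called genes and 0 of 9 among the largest falls.

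The step from trNK-D to trNK-T was also set against the step from trNK-V to trNK-D. The steps share the trNK-D libraries, which the contrast takes into account. The later step called 82 genes and the earlier step 15 (0.32% of the genes tested), 12 higher and 3 lower (0.0641%). No gene differed between the steps at an adjusted p below 0.05 and above 2-fold with edgeR or limma, 152 did at an unadjusted p with edgeR, and DESeq2 called 27, of which 24 were lower. For Gzme the earlier step was 2.61 ± 0.23 and the later one 3.53 ± 0.24 (log2 fold change ± SE), and for Spp1 they were 2.26 ± 0.20 and 1.22 ± 0.20. For Klrc1 they were -1.48 ± 0.17 and -2.28 ± 0.18. Cd74 changed by 0.16 ± 0.36 in the earlier step and by -6.14 ± 0.46 in the later one, a difference with an adjusted p of 0.0541 (edgeR). For Ctss the steps were 0.56 ± 0.22 and -2.54 ± 0.23 (adjusted p of the difference 0.0682, edgeR). Zbtb32 had the opposite order, with 8.26 ± 0.42 in the earlier step and 2.19 ± 0.26 in the later one (adjusted p of the difference 0.0541, edgeR). Its trNK-V level was close to 0.

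The genes that separated trNK-T from trNK-D were then read in trNK cells cultured with IL-21, a cytokine that signals through STAT3. Per the study, the cultured cells were trNK-V cells of an earlier gestational day, so they differed in fraction and day from the sorted cells described above. The culture held control cells, cells given 20 ng/mL IL-21 for 3 days, and cells given IL-21 with 1 μM of the STAT3 inhibitor Stattic (2 libraries each), none of them shared with the sorted fractions. IL-21 called 12 of 4159 genes higher (0.289%) and none lower by edgeR, against 129 lower at an unadjusted p, 59 by DESeq2 and 1 by limma. Of the 16 genes higher in trNK-T, 10 were tested in the culture, all 10 had a positive log2 fold change with IL-21 and 1, Spp1, was called. Their median was 1.19, against -0.02 over all genes. Of the 66 lower genes, 52 were tested, 39 had a negative log2 fold change and none was called, with a median of -0.43. With 1 culture library left out, 0 to 2 of the 62 genes tested were called with IL-21 in the direction they had in trNK-T. These counts are no test of the overlap.

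Spp1 was at 2295 and 1298 RPKM in control cultures, at 31497 and 20121 RPKM with IL-21 and at 2912 and 5305 RPKM with IL-21 and the inhibitor. It rose by 4.05 ± 0.52 on the log2 scale with IL-21 (adjusted p = 0.0325, edgeR) and fell by 2.56 with the inhibitor added (adjusted p = 0.0413, edgeR). The inhibitor called 1.8% of the genes tested higher and 1.15% lower than IL-21 alone. Gzme was at 0.0584 and 8.39 RPKM, at 201 and 672 RPKM and at 90.5 and 6.15 RPKM in the same order, a log2 fold change of 6.84 ± 1.88 with IL-21 that did not pass the test (adjusted p = 0.208, edgeR). Hif1a was at 6.55 and 6.26 RPKM, 16.2 and 22.01 RPKM, and 7.96 and 7.09 RPKM (adjusted p = 0.0921, edgeR). Epas1, Anxa3 and Scin, which separated trNK-T from trNK-D, were at 1.19 RPKM or below in every culture library. The medium of the cultures held IL-15, per the study's methods. In a separate culture of 72 h with or without IL-21, IL-21 called none of 2468 genes by edgeR (125 higher and 51 lower at an unadjusted p below 0.05 and above 2-fold), so the absence of calls among the 48 genes tested there says nothing about them. Of the 48, 19 had the sign of trNK-T against trNK-D.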

How the data were processed

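RNA of sorted cells was amplified (SMART-Seq HT) and sequenced, per the study's methods. The authors deposited whole-number counts per gene for each library. The submitters' processing notes name HISAT2 (version 2.1.0), featureCounts and Subread, with mouse build mm10, while the methods name RSEM. The libraries carry no strand, and reads of overlapping or near-identical genes cannot be separated. Symbols were matched for 54409 of 54446 gene IDs. RPKM was computed here from the counts and gene lengths. Genes that exceeded an RPKM of 10 in each library of at least 1 group entered edgeR (version 4.0.16, R 4.3.3): TMM scaling, 1 quasi-likelihood fit over the 6 sorted libraries, Benjamini-Hochberg adjustment, and a call at an adjusted p below 0.05 and more than 2-fold. The IL-21 culture was fitted separately in the same way. limma (3.58.1) and DESeq2 (1.42.0) were alternatives. Scripts were tested on simulated data. A fold against a group without counts used a floor of 3 counts per library, which covers counting error only. Named genes were those of the gate, those the study names, called list members and up to 4 more per list by size. To these came the 15 largest rises and falls, the 5 lowest adjusted p-values in each direction, and the plasma cell and macrophage genes. Not every plasma cell and macrophage gene is printed. The comparison and the gene lists were chosen with earlier results of these data known. Some genes are not reported here.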

Additional observations from a re-analysis of the deposited data

How the results depend on the processing

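Each of the 82 called genes kept its direction in every alternative setting that tested it (15 settings for 68 genes, 13 or 14 for 14), and 1, Gzme, was called in each of 15. The number called in trNK-T against trNK-D was 11 with the filterByExpr filter, 587 without a filter on low counts, 326 with DESeq2, 31 with the trNK-D and trNK-T libraries alone and 430 at an unadjusted p, and 1 to 40 with 1 library left out. Among gene list members, 36 called, the numbers were 8, 176, 113, 19 and 129 in the same order, and 1 to 19 with 1 library left out. For the difference between the steps, 0 called, they were 202 without a filter, 27 with DESeq2, 152 at an unadjusted p, and 0 to 2 with 1 library left out. Of 62 called genes tested in the culture, 1 was called in the same direction under IL-21. Each alternative used the genes it called itself, which gave 0 of 10 with filterByExpr, 40 of 223 with DESeq2, 0 of 48 at 72 h of the time course, and 0 to 2 with 1 library left out (62 genes without a culture library, 1 to 30 without a sorted one). The first principal component of the libraries held 70.3% of the variance, and 42.6% on log2(CPM + 1) without a filter. The cause of these moves was not tested. The replicate numbers are not said to pair libraries, and deviations of libraries with the same number correlated at 0.117 (trNK-V and trNK-D), -0.0151 (trNK-V and trNK-T) and 0.411 (trNK-D and trNK-T). With the replicate block, 151 genes were called in trNK-T against trNK-D, 67 among list members, 3 between the steps and 0 of 111 under IL-21. All settings for the sorted fractions draw on the same libraries, so a kept direction is no independent support. The 2 libraries a group limit the precision of every value.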
